A study of Mus musculus with 9 samples.

Results

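Matrix metalloproteinases were examined in lung RNA from 9 mice: 3 given PepNzymeSOD-CAT (below, nanozyme mice), 3 with a pulmonary fibrosis model and 3 normal mice. The set was chosen by gene symbol and held 10 genes, Mmp2, Mmp3, Mmp8, Mmp9, Mmp12, Mmp13, Mmp14, Mmp15, Mmp19 and Mmp25, of the 25526 names in the deposited table. PepNzymeSOD-CAT is an inhalable self-assembled polypeptide nanozyme, a synthetic material made to act like superoxide dismutase and catalase, and the study asked how it works against lung fibrosis. The labels give mouse lung as the tissue and the group names. Strain, age, sex, genotype, the agent that induced fibrosis, doses and sampling times are not given in the sources used here, and neither is whether nanozyme mice received the same injury as model mice.

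Matrix metalloproteinases are secreted or membrane-bound enzymes that carry a zinc ion in the active site and cut collagens, elastin, other matrix proteins and many signalling proteins. They are made as inactive proenzymes, are switched on by other proteases and are blocked by tissue inhibitors of metalloproteinases. In lung they are made by neutrophils, macrophages, fibroblasts and epithelium, and they are known both for matrix turnover and for tissue damage after injury. Transcript levels do not measure enzyme activity.

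Levels are FPKM, fragments scaled to transcript length and library size, which allows genes to be compared per length within a library. FPKM sums ran from 443746 to 519772 per library, and read counts were not used here, so depth and counting error are unknown. Group values are means ± SD of 3 mice. Changes are log2 fold changes ± SE of FPKM + 1 from limma, a linear model fitted to all 14540 genes with an FPKM of at least 1 in at least 3 of 9 libraries, with Benjamini-Hochberg adjustment over those genes and a threshold of 0.05. Of the metalloproteinases 9 were tested, and Mmp13 was not because it reached an FPKM of 1 in 1 library. Mmp8 passed the filter through the 3 nanozyme and 3 model libraries only. Mmp25 passed it through the 3 model libraries and 1 nanozyme library, replicate 2. The other 7 were above 1 FPKM in all 9 libraries.

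The libraries did not fall evenly into the labelled groups. Over the 14540 genes, nanozyme replicate 2 lay at a root-mean-square distance of 0.32 (log2 scale) from the model mean and 0.89 from the normal mean. Nanozyme replicates 1 and 3 lay at 0.76 and 0.69 from the model mean, and at 0.68 and 0.63 from the normal mean. Nanozyme library names are numbered apart from those of the other groups, so a batch and the treatment cannot be told apart. Nanozyme replicate 1 also held 1113 FPKM of 5 skeletal muscle markers, against at most 239 in any other library. Lung epithelial markers such as Sftpc and Scgb1a1 were present in every library. The 8 epithelial markers summed to 33315 to 55447 FPKM in nanozyme, 16011 to 25788 in model and 80305 to 101199 in normal lungs. Scgb1a1 and Sftpc held most of these sums, with means of 63870 and 22510 FPKM in normal lung, so the sums mainly follow these genes.

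In model lung, 7 of the 10 metalloproteinases rose and 1, Mmp15, fell, whereas Mmp2 did not pass and Mmp13 was not tested. Of all tested genes, 17.4% were called higher in this comparison and 22.7% lower. The set was chosen with earlier results of these data known, so its counts beside these shares are no test of the family. The table also holds 12 metalloproteinases outside the set, of which 3 were tested, with 0 higher and 2 lower in model lung. The libraries of model lung lay above those of normal lung at 8 of the 10 genes and below at 1, where 23.5% of tested genes lay above and 34.9% below. In nanozyme lung none passed against model lung, where 0% of all tested genes were called higher and 0% lower. Against normal lung 4 rose in nanozyme lung (Mmp8, Mmp9, Mmp12 and Mmp14) and 0 fell. In that comparison 8.39% of tested genes were called higher and 5.50% lower. Without normal replicate 1 or 3, 2 were called (Mmp8 and Mmp9), with 627 and 600 genes called higher and 168 and 148 lower. Nanozyme libraries lay above the normal ones at 7 of the 10 genes and below at 1, where 22.1% of tested genes lay above and 20.8% below. The summed level of the 10 genes was 199.8 ± 50.4 FPKM in nanozyme, 336 ± 9.19 FPKM in model and 134 ± 3.27 FPKM in normal lung. Per library, it was 174, 258 and 168 FPKM in nanozyme lungs, 331, 329.9 and 346 in model lungs and 130, 136 and 136 in normal lungs.

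The order of the levels changed between groups. In nanozyme lung Mmp14 led at 53.5 FPKM, followed by Mmp2, Mmp9, Mmp15, Mmp8 and Mmp3 from 36.5 down to 17.4 FPKM, and each of these overlapped with the next. In model lung Mmp14 led at 104 FPKM, followed by Mmp8 (69.9) and Mmp9 (60.5), which overlapped with each other, and then by Mmp2 and Mmp3 at 32.9 and 32.7, which also overlapped. Mmp15 and Mmp19 (16.2 and 11.7) and Mmp12 and Mmp25 (4.28 and 3.29) were likewise pairs of neighbours whose libraries overlapped in model lung. In normal lung the order was Mmp15 (44.1), Mmp2 (37.8), Mmp14 (24.4), Mmp3 (18.9), Mmp19 (4.76), Mmp9 (1.86), Mmp12 (1.22), Mmp8 (0.463), Mmp13 (0.224) and Mmp25 (0.171), and of these neighbours Mmp13 and Mmp25 were the pair that overlapped.

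**Figure D1:**
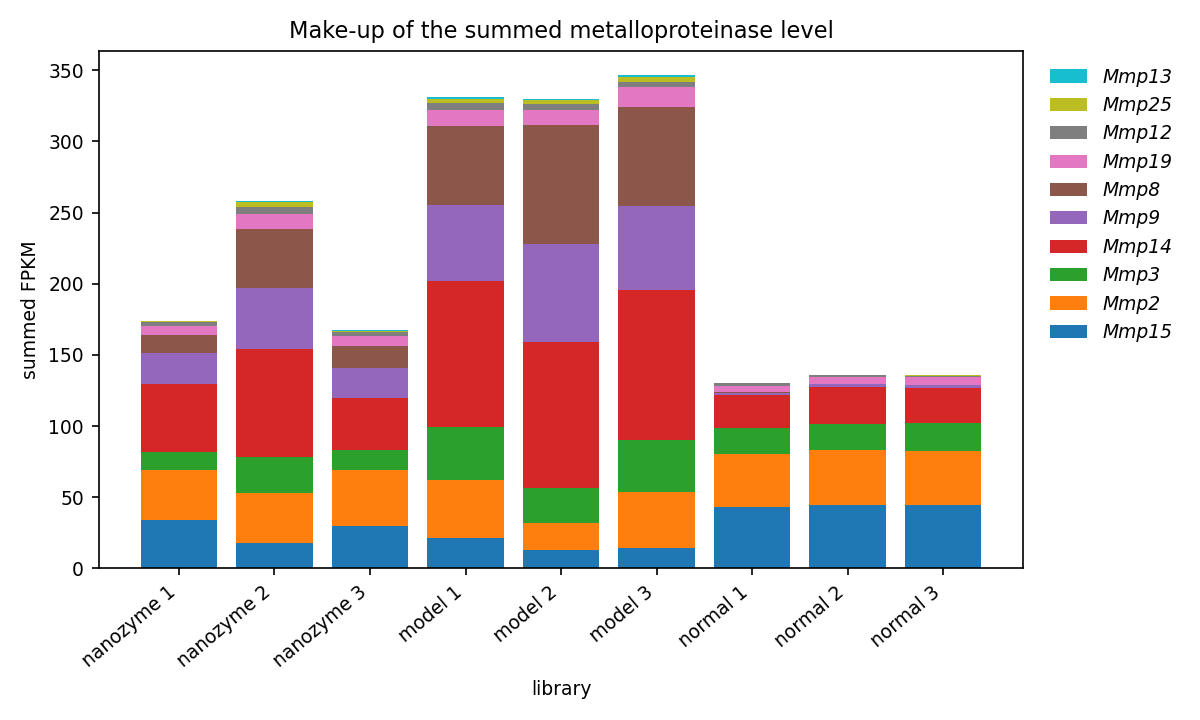
Each bar is 1 library, its height is the summed FPKM of the 10 genes and its segments are the single genes. Normal bars of 130 to 136 FPKM are mostly Mmp15, Mmp2, Mmp14 and Mmp3, while model bars of 329.9 to 346 FPKM also hold large Mmp8 and Mmp9 segments, and nanozyme replicate 2 stands at 258 FPKM between them.

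Of the 10 genes, 4 lie in 1 cluster on chromosome 9. GENCODE vM21 annotates GRCm38, the build named in the submitters' processing notes, and there chr9:7272514-7699585 holds 10 metalloproteinase genes over 427 kb, among them Mmp13 (chr9:7272514-7283331), Mmp12 (chr9:7344381-7369499), Mmp3 (chr9:7445822-7455975) and Mmp8 (chr9:7558456-7568485), all protein coding on the plus strand. The neighbours Mmp1b, Mmp20 and Mmp7 were listed at 0 in all 9 libraries, Mmp10 did not exceed 0.0902 FPKM and Mmp27 did not exceed 0.752 FPKM. Mmp12 shares 1261 bases with Mmp1b on the other strand, and reads there could not be told apart if counting ignored strand. At Mmp13, Mmp12, Mmp3 and Mmp8 every model library was above every normal library, as at 8 of the 10 genes in all. Mmp14 and Mmp25, outside the cluster, shared that order, and their windows are not printed. Promoter sequences are shown for the 4 genes of the set that lie in the cluster. Each runs from 250 bases before to 50 bases after the RefSeq transcript start (GRCm38.p6, plus strand), and capitals mark the motif TGANTCA, which AP-1 transcription factors of the Fos and Jun families recognise.
Mmp13, chr9:7272264-7272563: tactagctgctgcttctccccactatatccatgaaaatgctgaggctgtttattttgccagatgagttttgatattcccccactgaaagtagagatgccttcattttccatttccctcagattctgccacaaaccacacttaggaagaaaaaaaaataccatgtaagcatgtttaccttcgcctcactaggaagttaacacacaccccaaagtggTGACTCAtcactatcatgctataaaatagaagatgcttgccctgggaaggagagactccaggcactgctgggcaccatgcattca
Mmp12, chr9:7347124-7347423: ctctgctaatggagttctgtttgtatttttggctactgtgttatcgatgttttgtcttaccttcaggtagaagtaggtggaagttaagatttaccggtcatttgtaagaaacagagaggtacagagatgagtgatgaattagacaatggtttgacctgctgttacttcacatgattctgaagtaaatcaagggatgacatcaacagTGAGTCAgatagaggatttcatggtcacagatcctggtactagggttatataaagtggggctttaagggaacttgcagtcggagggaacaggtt
Mmp3, chr9:7445572-7445871: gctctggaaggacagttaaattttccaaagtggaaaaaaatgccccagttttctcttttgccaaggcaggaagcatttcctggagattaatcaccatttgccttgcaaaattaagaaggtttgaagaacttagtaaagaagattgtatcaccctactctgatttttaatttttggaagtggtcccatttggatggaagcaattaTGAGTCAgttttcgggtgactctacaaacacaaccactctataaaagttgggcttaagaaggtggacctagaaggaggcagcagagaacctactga
Mmp8, chr9:7558179-7558478: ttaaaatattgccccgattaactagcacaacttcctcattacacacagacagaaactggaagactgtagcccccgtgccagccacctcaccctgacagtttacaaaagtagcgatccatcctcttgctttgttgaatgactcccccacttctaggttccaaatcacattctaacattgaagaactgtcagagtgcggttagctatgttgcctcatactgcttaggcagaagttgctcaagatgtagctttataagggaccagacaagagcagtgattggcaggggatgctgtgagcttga

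The AP-1 motif, which reads the same on both strands, began 35, 44 and 46 bases before the annotated start in Mmp13, Mmp12 and Mmp3, and these letters are not in the Mmp8 window. RefSeq gives Mmp12 2 starts, and the other window (chr9:7344147-7344446) has no such letters. Windows were at hand for 7 of the 10 genes (not for Mmp2, Mmp9 and Mmp19), and Mmp14, Mmp15 and Mmp25 had no match. Of all 32851 windows given by RefSeq 7.81% hold the motif. The ETS motif AGGAAG, searched on both strands, was found in 6 of the 7 genes and in 35.4% of all windows, and the letters TATAAA on the plus strand of the gene in 3 of the 7 genes (Mmp3, Mmp12 and Mmp13) and in 8.32% of all windows. Neither overlapped the AP-1 motif. Gene counts take a match in either Mmp12 window, while the shares are per window. A match is a description of these letters, not of a bound site.

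The collagenases are the members that open the triple helix of fibrillar collagen. Mmp8, the collagenase stored in neutrophil granules, was at 12.9, 41.6 and 15.8 FPKM in nanozyme lungs, 56.0, 83.9 and 69.8 FPKM in model lungs and 0.533, 0.503 and 0.352 FPKM in normal lungs. No libraries of any pair of groups overlapped, and nanozyme replicate 2 stood nearest to model lung. Mmp8 rose in model lung by 5.58 ± 0.37 (adjusted p = 1e-04, limma), a 151-fold ratio of mean FPKM, and in nanozyme against normal lung by 3.88 ± 0.37 (adjusted p = 0.000815). Between nanozyme and model lung the change was -1.70 ± 0.37 (adjusted p = 0.181). Mmp13, a collagenase of mesenchymal cells, was at 0.346, 0.676 and 0.980 FPKM in nanozyme lungs, 1.24, 0.556 and 0.877 FPKM in model lungs and 0.229, 0.267 and 0.176 FPKM in normal lungs. Every nanozyme and model library was above every normal library, at levels near the lower end of the scale. With no filter on low values Mmp13 passed in model against normal lung at 0.61 (adjusted p = 0.0475).

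The gelatinases cut denatured collagen and basement membrane. Mmp9 (chr2:164940780-164955850), the gelatinase of neutrophils and macrophages, was at 21.4, 42.7 and 20.6 FPKM in nanozyme lungs, 53.3, 68.8 and 59.3 FPKM in model lungs and 1.92, 1.62 and 2.04 FPKM in normal lungs, with no overlap between groups. It rose by 4.42 ± 0.25 in model lung (adjusted p = 7.77e-05) and by 3.28 ± 0.25 in nanozyme against normal lung (adjusted p = 0.000362), and was at -1.15 ± 0.25 in nanozyme against model lung (adjusted p = 0.181). Mmp2 (chr8:92827291-92853420), the gelatinase of fibroblasts, was at 35.0, 35.0 and 39.4 FPKM in nanozyme lungs, 40.6, 18.9 and 39.3 FPKM in model lungs and 36.6, 38.8 and 38.0 FPKM in normal lungs. The groups overlapped, and model replicate 2 was the low library. Mmp2 did not pass in any comparison (adjusted p = 0.420 in model against normal, 0.625 in nanozyme against model and 0.920 in nanozyme against normal lung). Its 95% confidence interval was -0.36 to 0.80 in nanozyme against model, -0.63 to 0.53 in nanozyme against normal and -0.85 to 0.31 in model against normal lung. Without model replicate 2 the change in model lung was 0.08, and without it the change in nanozyme against model lung was -0.13. The ratio of Mmp9 to Mmp2 within a library was 0.609, 1.22 and 0.522 in nanozyme, 1.31, 3.65 and 1.51 in model and 0.0523, 0.0419 and 0.0537 in normal lungs.

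Mmp3, stromelysin, digests proteoglycans and fibronectin and activates other metalloproteinase proenzymes. Its levels were 12.8, 25.4 and 14 FPKM in nanozyme lungs, 37.3, 24.7 and 36.0 FPKM in model lungs and 18.8, 18.5 and 19.4 FPKM in normal lungs. Nanozyme replicates 1 and 3 were below every normal library and nanozyme replicate 2 was above them, so that the nanozyme group overlapped with both others. Mmp3 rose by 0.74 ± 0.25 in model lung (adjusted p = 0.0455), a call that ended without model replicate 1 or 3 or any normal library (adjusted p from 0.101 to 0.120), without nanozyme replicate 3 (0.0550), with no filter (0.101) and with the replicate number as a block (0.0802). It was at -0.91 ± 0.25 in nanozyme against model lung (adjusted p = 0.181) and at -0.18 ± 0.25 in nanozyme against normal lung (adjusted p = 0.682).

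Mmp12, the macrophage metalloelastase, degrades elastin. It was at 2.29, 4.97 and 2.52 FPKM in nanozyme lungs, 5.06, 4.73 and 3.06 FPKM in model lungs and 1.43, 1.03 and 1.22 FPKM in normal lungs. Both the nanozyme and the model libraries lay above every normal library and overlapped with each other. Mmp12 rose in model lung by 1.23 ± 0.25 (adjusted p = 0.00625) and in nanozyme against normal lung by 0.89 ± 0.25 (adjusted p = 0.0491). The nanozyme call ended without either nanozyme replicate 2 (0.62, adjusted p = 0.0750) or 3, without model replicate 1 or 2, without any normal library, and with the other settings given under processing. Against model lung, nanozyme lung was at -0.34 ± 0.25 (adjusted p = 0.430).

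The membrane-anchored members moved in both directions in model lung. Mmp14, a transmembrane collagenase that also activates the Mmp2 proenzyme, lies on chromosome 14 (chr14:54431612-54445364) and was at 47.9, 76.0 and 36.6 FPKM in nanozyme lungs, 102, 103 and 105 FPKM in model lungs and 22.7, 25.9 and 24.7 FPKM in normal lungs. No pair of groups overlapped. Mmp14 rose by 2.04 ± 0.22 in model lung (adjusted p = 0.000589) and by 1.04 ± 0.22 in nanozyme against normal lung (adjusted p = 0.0196), and was at -1.0 ± 0.22 in nanozyme against model lung (adjusted p = 0.181). The nanozyme call against normal lung ended without normal replicate 1 (0.0814) or 3 (0.0715) and with no filter (0.0545).

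Mmp15, its close transmembrane relative, lies on chromosome 8 (chr8:95352268-95375080) and was at 34.0, 17.8 and 30.0 FPKM in nanozyme lungs, 21.4, 12.7 and 14.6 FPKM in model lungs and 43.4, 44.5 and 44.6 FPKM in normal lungs. Every nanozyme and model library lay below every normal one, and nanozyme replicate 2 lay among the model libraries. Mmp15 fell by 1.42 on the log2 scale in model lung (SE 0.25, adjusted p = 0.00364). It was at 0.70 ± 0.25 in nanozyme against model lung (adjusted p = 0.184) and at -0.72 ± 0.25 in nanozyme against normal lung (adjusted p = 0.0894). The ratio of Mmp14 to Mmp15 within a library, which no scaling between libraries alters, was 1.41, 4.26 and 1.22 in nanozyme, 4.78, 8.10 and 7.23 in model and 0.522, 0.583 and 0.555 in normal lungs.

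Mmp25 (chr17:23628311-23645277), a membrane-anchored enzyme of leukocytes also called leukolysin, was at 0.781, 3.29 and 0.866 FPKM in nanozyme lungs, 3.14, 2.62 and 4.11 FPKM in model lungs and 0.0960, 0.186 and 0.231 FPKM in normal lungs. Nanozyme replicate 2 lay among the model libraries, and every nanozyme and model library lay above normal lung. Mmp25 rose by 1.86 ± 0.32 in model lung (adjusted p = 0.00337), where the ratio of mean FPKM was 19.3 and is understated by the log2(FPKM + 1) scale. Mmp25 passed the filter through the model libraries, where it was high, and nanozyme replicate 2 only. It was at -0.81 ± 0.32 in nanozyme against model lung (adjusted p = 0.199) and at 1.05 ± 0.32 in nanozyme against normal lung (adjusted p = 0.0625), where it passed without nanozyme replicate 2 (adjusted p = 0.0462) and with a pseudocount of 0.1 (0.0195).

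Mmp19, a secreted enzyme that cuts basement membrane proteins, was at 6.46, 10.4 and 6.83 FPKM in nanozyme lungs, 10.8, 10.3 and 14 FPKM in model lungs and 4.50, 4.71 and 5.08 FPKM in normal lungs. Only nanozyme replicate 2 of the nanozyme libraries reached the model range. Mmp19 rose by 1.13 ± 0.18 in model lung (adjusted p = 0.00263) and was at -0.53 ± 0.18 in nanozyme against model lung (adjusted p = 0.182) and 0.60 ± 0.18 in nanozyme against normal lung (adjusted p = 0.0612). Its gene (chr10:128790910-128800824) lies opposite an antisense gene along its whole length and shares 789 bases with Tmem198b on the other strand. The strand setting of the counting is not stated, and reads there could not be told apart if counting ignored strand.

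**Figure D2:**
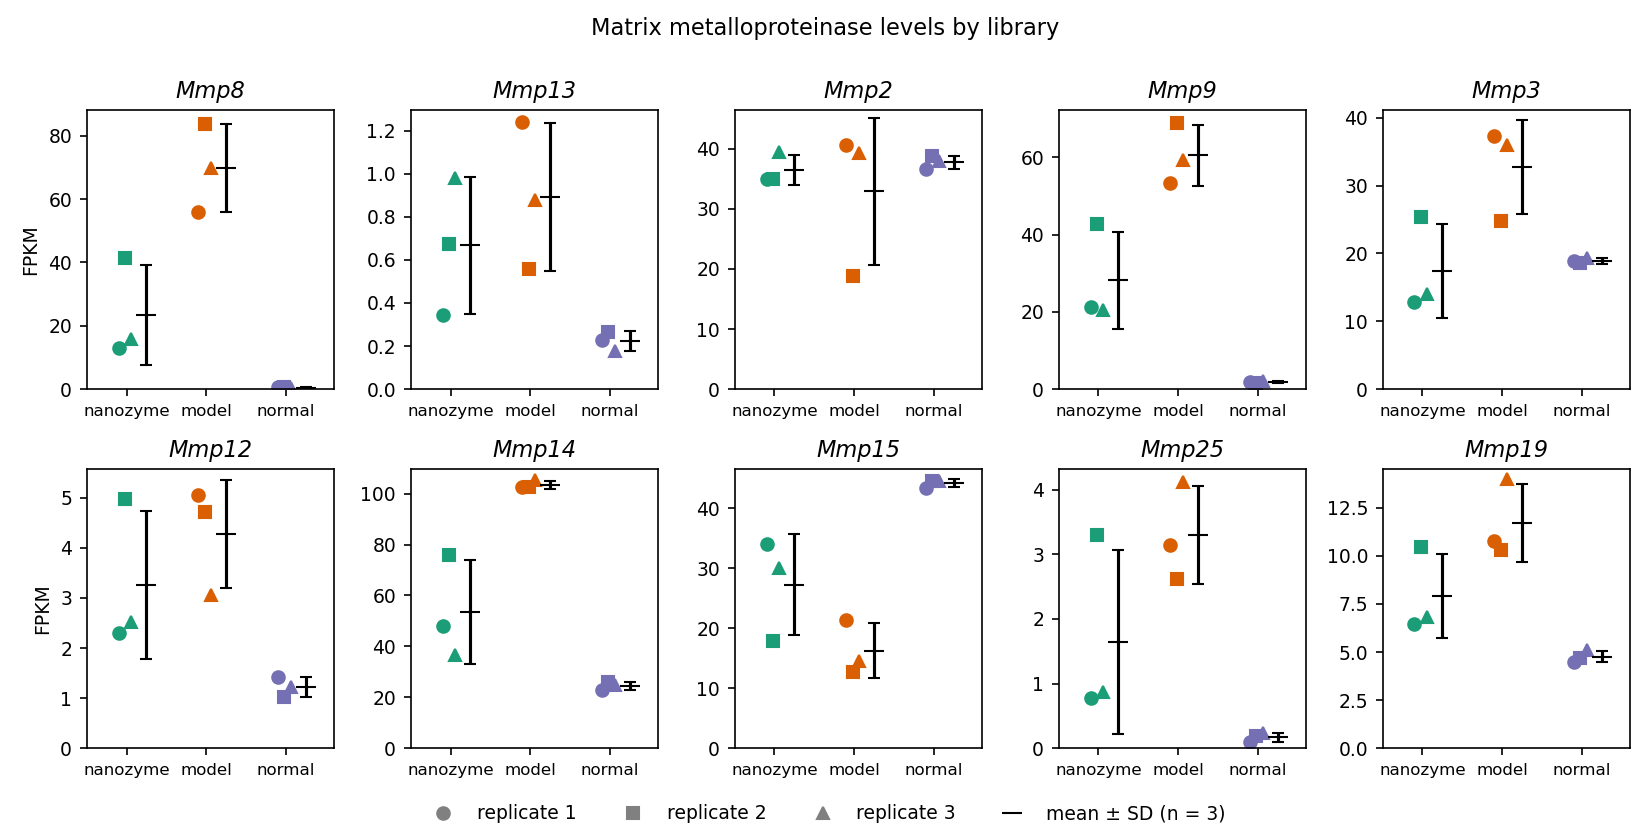
FPKM of each gene (vertical axis, from 0) in nanozyme, model and normal lungs, with 1 point per library, marker shape for the replicate and a dash with bars for the mean ± SD of 3. Nanozyme replicate 2 (square) lies nearer the model mean than the normal mean on the log2 scale for 9 of the 10 genes, the exception being Mmp2, against 2 and 4 genes for nanozyme replicates 1 and 3, and Mmp15 shows the reverse order of the groups.

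Against model lung, 7 of the 9 tested genes had an unadjusted p under 0.05 in nanozyme lung, where 22.1% of all tested genes did, and 0 passed the adjustment (limma adjusted p from 0.181 to 0.625). The libraries of nanozyme lung were all below those of model lung at 3 genes, Mmp8, Mmp9 and Mmp14, and above at 0, where 5.83% of tested genes lay below and 10.6% above. These results turned on nanozyme replicate 2. Without it 6 genes were lower (Mmp3, Mmp8, Mmp9, Mmp14, Mmp19 and Mmp25) and Mmp15 was higher than in model lung, while 9.64% of tested genes were called lower and 12.5% higher. The changes were then -2.19 ± 0.18 for Mmp8 (adjusted p = 0.000386), -1.48 ± 0.13 for Mmp9 (0.000483), -1.28 ± 0.13 for Mmp14 (0.000665), -1.21 ± 0.17 for Mmp3 (0.00314) and 0.97 ± 0.19 for Mmp15 (0.0124). Mmp12 at -0.61 ± 0.19 (adjusted p = 0.0576) and Mmp2 at 0.25 ± 0.30 (0.590) did not pass in that fit either. Nanozyme replicate 2 lay nearest to the model mean, so leaving it out favours larger differences. These values show the dependence on 1 library and are no separate test. Without nanozyme replicate 1 or 3 instead, 0 metalloproteinases were called.

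Measured on the log2 scale as a share of the distance between the normal mean (0%) and the model mean, nanozyme replicate 1 stood at 58.3% for Mmp8 and 67.2% for Mmp9, and replicate 3 at 63.2% and 66.0%. For Mmp14 these libraries were at 46.3% and 27.8%, for Mmp15 at 25.8% and 38.2%, for Mmp19 at 33.0% and 39.2% and for Mmp25 at 32.6% and 36.2%. Nanozyme replicate 2 stood between 78.4% (Mmp14) and 100.8% (Mmp25) for these 6 genes. For Mmp3 nanozyme replicates 1 and 3 lay on the far side of the normal mean, at -71.8% and -55.6%, where replicate 2 was at 55.4%.

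**Figure D3:**
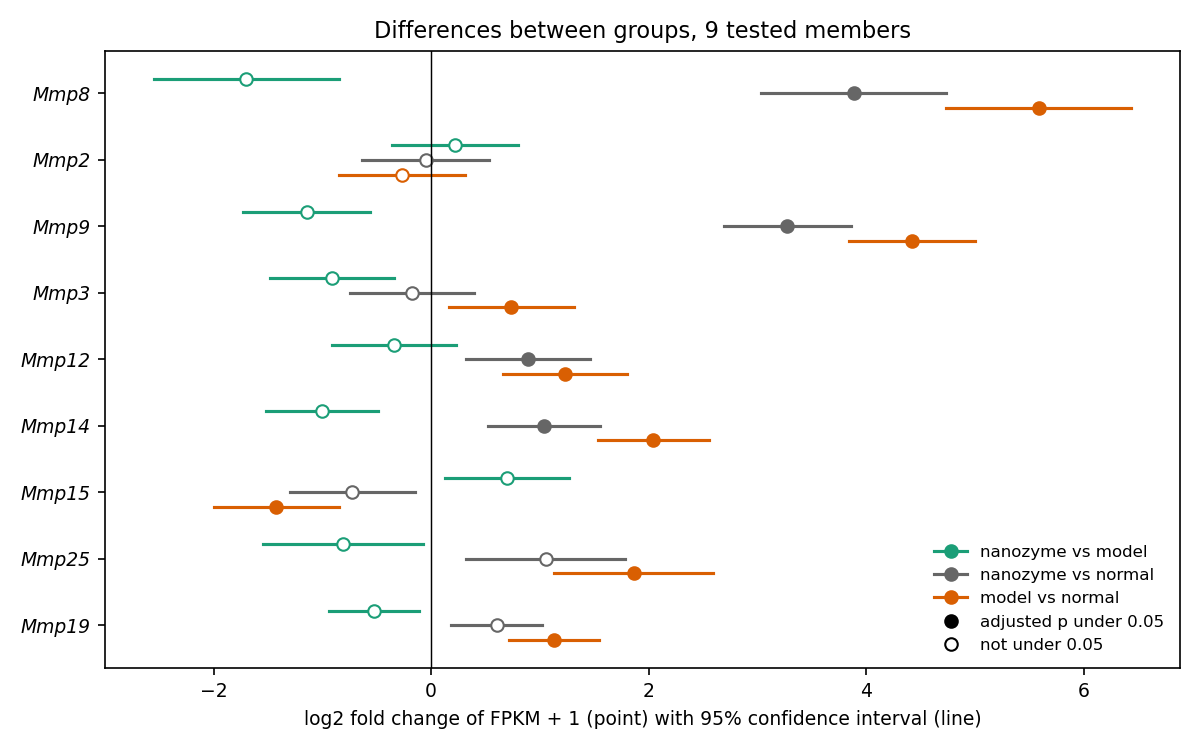
Log2 fold changes of FPKM + 1 (points) with 95% confidence intervals (lines) for the 9 tested genes in nanozyme against model, nanozyme against normal and model against normal lung, with filled points for an adjusted p under 0.05. Filled points lie to the right for 7 genes and to the left for Mmp15 in model against normal lung, and no point is filled in nanozyme against model lung.

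Markers of leukocytes moved with several of these genes. Of 10 neutrophil markers 9 rose and 0 fell in model lung, and their summed level was 1385 to 6802 FPKM in nanozyme, 6360 to 8758 in model and 126 to 414 in normal lungs. Ly6g, a defining neutrophil marker, was at 4.67, 17.9 and 6.15 FPKM in nanozyme lungs and 16.5, 12.2 and 14 in model lungs, and was listed at 0 in all 3 normal lungs. In bulk lung RNA, fewer cells of a type and less RNA per cell cannot be told apart. All 9 recruited macrophage markers rose in model lung (535 to 871 FPKM summed in nanozyme, 892 to 1127 in model and 122 to 125 in normal lungs). Of 8 alveolar macrophage markers 3 rose and 0 fell (639 to 722 FPKM summed in nanozyme, 545 to 678 in model and 217 to 261 in normal lungs). Of 8 fibroblast markers 5 fell (619 to 2367 FPKM in nanozyme, 210 to 653 in model and 1636 to 2225 in normal lungs), of 8 epithelial markers 5 fell, and of 6 endothelial markers 1 fell (493 to 806 FPKM in nanozyme, 261 to 552 in model and 624 to 721 in normal lungs), with 0 higher in each list. All 5 cardiac muscle markers fell (15.8 to 110 FPKM in nanozyme, 9.23 to 45.4 in model and 110 to 533 in normal lungs). Of skeletal muscle markers 0 of 4 tested were called in model lung, with 1.66 to 1113 FPKM in nanozyme, 1.85 to 239 in model and 3.30 to 20.2 in normal lungs. Of fat markers 1 of 3 tested fell, with 2.30 to 16.4 FPKM in nanozyme, 0.572 to 4.53 in model and 5.98 to 21.1 in normal lungs. Of all tested genes, 17.4% were called higher in model against normal lung and 22.7% lower. The marker sums follow their most abundant genes. Inmt, at means of 1270 FPKM in nanozyme, 252 in model and 1597 in normal lung, held most of the mean fibroblast sum. Chil3, at 480, 489 and 141 FPKM, held most of the mean alveolar macrophage sum. The part of any of these cell types in the changes above was not tested.

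Lcn2 and Ltf, which epithelium also makes, held 21.0% to 90.9% of the summed neutrophil markers, and a sum over the other 8 was therefore used as well, a choice made after their values were seen. Per 1000 FPKM of these 8 markers, Mmp8 was at 11.8, 12.8 and 11.9 FPKM in nanozyme lungs, 23.4, 27.2 and 24.2 in model lungs and 14.2, 10.9 and 7.61 in normal lungs. All 3 nanozyme libraries, replicate 2 included, were below the model libraries on this ratio. Per 1000 FPKM of all 10 markers the Mmp8 ranges of nanozyme (6.11 to 9.34) and model lung (8.80 to 10.1) overlapped. Mmp9 was at 13.2 to 19.5 FPKM per 1000 FPKM of the 8 markers in nanozyme, 20.5 to 22.3 in model and 35.3 to 50.9 in normal lungs, and per 1000 FPKM of all 10 markers at 6.28 to 15.4 in nanozyme, 7.86 to 8.60 in model and 4.63 to 12.9 in normal lungs. Mmp12 per 1000 FPKM of recruited macrophage markers was at 4.10 to 5.71 FPKM in nanozyme, 3.33 to 5.67 in model and 8.22 to 11.7 in normal lungs.

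**Figure D4:**
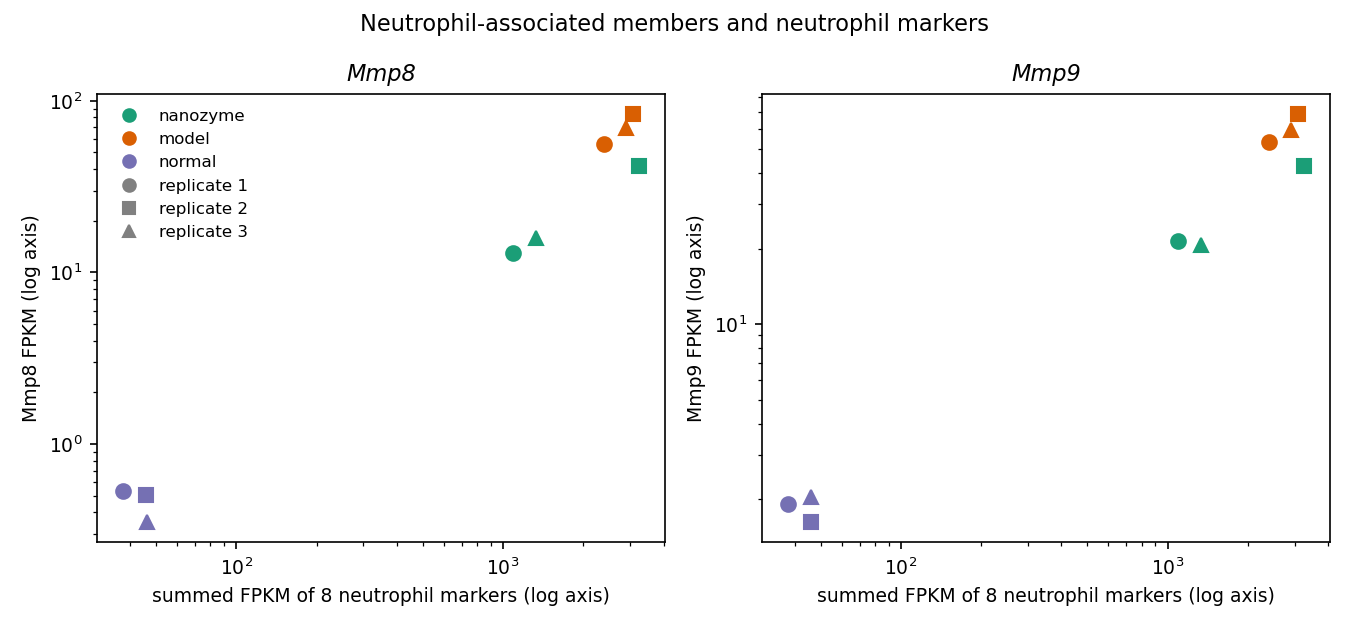
Mmp8 (left) and Mmp9 (right) FPKM against the summed FPKM of 8 neutrophil markers, both on log axes, with 1 point per library. Nanozyme replicate 2 has 3243 FPKM of markers, above the 2391 to 3082 FPKM of the model libraries, and lies below them in Mmp8 and Mmp9. S100a8 (1189 FPKM) and S100a9 (1606 FPKM) hold most of that sum. With all 10 markers this library, at 6802 FPKM, lies within the model range of 6360 to 8758 FPKM. The part of neutrophils in these levels was not tested.

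Some genes had profiles close to those of the metalloproteinases. Likeness was measured as the root-mean-square distance between log2(FPKM + 1) profiles over the 9 libraries, each centred on its mean, among 12979 candidates. Nearest to Mmp8 were Wfdc17 (0.30) and Cfb (0.33), a complement factor, and nearest to Mmp9 were Fcgr4 (0.24), an IgG receptor, and Cxcr2 (0.26), the neutrophil chemokine receptor. Nearest to Mmp14 were Sema4a (0.09) and Ltb4r1 (0.13), the leukotriene B4 receptor, and nearest to Mmp12 were Cks2 and Gusb (0.14 each). Mmp15 ran closest to Klhl13 (0.08) and to Cat (0.10), the catalase gene, which was at 95.7 ± 32.4 FPKM in nanozyme, 55.1 ± 12.9 in model and 136 ± 10.7 in normal lung.

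The other genes of the pathway were read from 8 lists. In model against normal lung 17.4% of all tested genes were called higher and 22.7% lower. The counts of all 8 lists are to be read beside these shares. Of the remaining metalloproteinases 3 were tested, of which Mmp11 and Mmp23 fell by 0.70 and 0.50 on the log2 scale in model lung (adjusted p = 0.0387 and 0.0402) and Mmp28 did not pass (adjusted p = 0.0932). Of 7 inhibitors 2 rose and 0 fell in model lung. Of these, A2m reached an FPKM of 1 in model libraries only, and so passed the filter through the group where it was high. Timp1, the inducible tissue inhibitor, was at 16.1, 167 and 24.1 FPKM in nanozyme lungs, 188, 288 and 225 in model lungs and 4.92, 6.70 and 6.43 in normal lungs, and A2m, a broad protease trap, was at 0.300 ± 0.219 FPKM in nanozyme, 1.89 ± 0.668 in model and 0.148 ± 0.116 in normal lung. Reck, a membrane-bound inhibitor, did not pass (-0.91 ± 0.32, adjusted p = 0.0519). Of 6 tested plasminogen system genes, which form plasmin that activates several metalloproteinases, 4 rose, among them the urokinase receptor Plaur (1.84 ± 0.31), and 1 fell, Serpine2 (-0.70 ± 0.14). Of 6 tested proenzyme-activating proteases 2 rose, Furin, which activates the membrane-type enzymes (1.42 ± 0.19), and Prtn3 (0.98 ± 0.20), and 1 fell, Pcsk6 (-0.75 ± 0.19).

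Among inducers of metalloproteinase transcription 7 of 8 rose in model lung and 1 fell, including Il1b (5.62 ± 0.78) and Tgfb1 (1.26 ± 0.12). Of 9 tested AP-1 and ETS factors 3 rose and 2 fell, and the risers were Fosl2 (1.06 ± 0.23), Junb (1.06 ± 0.28) and Ets2 (0.61 ± 0.15). Fosl2 was at 11, 20.6 and 11.2 FPKM in nanozyme, 23.9, 19.8 and 28.6 in model and 10.9, 10.9 and 11.1 in normal lungs, so that nanozyme replicate 2 again lay within the model range. Of 10 matrix substrates 7 rose and 0 fell, including Col3a1 (1.13 ± 0.18) and Fn1 (1.5 ± 0.27). Of 14 tested ADAM and ADAMTS relatives 5 rose and 1 fell, including the aggrecanase Adamts4 (1.94 ± 0.39) and the sheddase Adam17 (1.11 ± 0.22).

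In nanozyme against model lung 0 genes of these 8 lists passed, but without nanozyme replicate 2, 22 were lower and 5 higher. Of all tested genes, 9.64% were then called lower and 12.5% higher. In nanozyme against normal lung Timp1 (2.58 ± 0.72, adjusted p = 0.0485), Prtn3 (1.33 ± 0.20, 0.00428), Fn1 (1.10 ± 0.27, 0.0321), Il1b (3.12 ± 0.78, 0.0327), Tgfb1 (0.99 ± 0.12, 0.00213) and the sheddase Adam10 (0.38 ± 0.10, 0.0481) were higher. These 6 calls became 2 without any 1 normal library or with no filter, 3 without model replicate 1 and 11 without model replicate 2. With all 9 libraries, 8.39% of all tested genes were called higher in nanozyme against normal lung. In model against normal lung the lists gave 30 higher and 8 lower genes in all. Of all tested genes, 17.4% were called higher there and 22.7% lower. The lower list calls were 4 without nanozyme replicate 3 or normal replicate 1. They were 3 without model replicate 3 or normal replicate 2, and 2 without normal replicate 3. Over all list genes tested in model against normal lung, the median change was highest for the inducers (2.28) and the plasminogen system (1.70). It was -0.16 for the inhibitors and -0.70 for the remaining metalloproteinases, where the median of all tested genes was -0.12.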

How the data were processed

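Lung RNA was extracted with TRIzol, poly(A) RNA was selected and libraries were made with a second-strand marking buffer, per the labels' protocols. Reads were aligned with HISAT2 to GRCm38, per the submitters' processing notes. Annotation, counting tool, strand setting and versions are not given in the sources used here. The authors deposited FPKM values, 1 column per library, and no 2 libraries were identical. Low values gave no sign of whole-read steps (of their ratios between libraries, at most 9.63% shared a bin), so depth was not recovered. Each library is 1 mouse, per the labels' protocols.

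Tests used log2(FPKM + 1), all 9 libraries in 1 fit with 1 coefficient per group and a trended prior in limma 3.58.1 (R 4.3.3), two-sided, and were tried on simulated data. With 3 against 3, an exact permutation test cannot go below 0.10, so none was run. The labels do not say whether replicate numbers pair animals, so the main fit used no block. The genes and lists were chosen with earlier results of these data known. All 10 members are named, together with up to 3 genes per list with the smallest p in model against normal lung, the 2 nearest profiles of 5 members, and Adam10, Sftpc, Scgb1a1, Ly6g, Tmem198b, Lcn2, Ltf and neighbours in the cluster, chosen after their values were seen. 1 gene that this rule names is not reported here. Alternatives were 10 settings and leaving out each of the 9 libraries. Figures used matplotlib 3.10.9 and Python 3.11.15.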

Additional observations from a re-analysis of the deposited data

How the results depend on the processing

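In model against normal lung, 7 higher and 1 lower metalloproteinase were called, and leaving out a library gave 6 to 7 and 1 to 1. Over all genes that comparison gave 2525 higher and 3299 lower, with 1916 to 2754 and 1920 to 3836 when a library was left out and 2152 lower with a filter at a mean FPKM of 5. In nanozyme against model lung, leaving out a library gave 0 to 1 metalloproteinase higher and 0 to 6 lower, and 0 to 1814 genes higher and 0 to 1402 lower. The upper ends come from leaving out nanozyme replicate 2. Sample weights gave 1 higher and 6 lower metalloproteinases with 1308 and 1211 genes, and no filter gave 2 and 7 genes. In nanozyme against normal lung, 4 metalloproteinases were called higher and 0 lower over 1220 and 800 genes, with 2 to 4 and 0 to 0 over 600 to 1353 and 148 to 917 genes when a library was left out. There, the mean FPKM filter gave 807 and 478 genes, sample weights 2608 and 2045 with 2 metalloproteinases lower, quantile normalization 1324 genes and 1 metalloproteinase lower, and no filter 2 metalloproteinases higher.

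Counts over all genes moved by over 1.5 times without normal replicate 1 or 3, to 1987 and 1920 lower genes in model against normal lung, and to 627 and 600 higher and 168 and 148 lower genes in nanozyme against normal lung. Without nanozyme replicate 1 or 3 the lower genes in nanozyme against normal lung were 435 and 474.

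Sample weights called 22 genes of the 8 pathway lists lower and 4 higher in nanozyme against model lung, and 16 higher and 4 lower in nanozyme against normal lung. The lower list genes in model against normal lung were 3 with no filter, 5 with the mean FPKM filter and 4 with equal column sums or median-of-ratios scaling.

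Mmp12 in nanozyme against normal lung also lost its call with no filter (adjusted p = 0.113), median-of-ratios scaling (0.0557), quantile normalization (0.0686) and only the 2 groups compared (0.0672). Mmp2, which passed in no fit, changed sign without model replicate 2. Leaving out a library gave Mmp2 changes from -0.46 to 0.078 in model against normal and from -0.13 to 0.40 in nanozyme against model lung. With equal column sums Mmp2 was at 0.013 in nanozyme against normal lung. Median-of-ratios scaling shifted the median change of all genes by 0.13 in model against normal and -0.10 in nanozyme against model lung, and the share of higher calls in model against normal lung was 43.4% as reported, 55.3% with that scaling and 54.2% with equal column sums. No direction of a called metalloproteinase changed under any scaling. With the replicate block, 6 metalloproteinases were higher in model against normal lung (Mmp3 lost its call, adjusted p = 0.0802), 0 passed in nanozyme against model lung and 3 in nanozyme against normal lung (Mmp12 at 0.0626), over 2402 higher and 3226 lower, 0, and 1117 higher and 617 lower genes. Whether the numbers pair the animals is not stated. Correlations of same-numbered deviations ran from -0.331 to 0.227, and 3 libraries per group cannot settle it. Between nanozyme and model lung these correlations were 0.086, 0.227 and 0.135. The cause of the differences between settings was not tested. Unknown depth limits the low values of Mmp13, Mmp25 and, in normal lung, Mmp8.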

Other observations

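The balance between Mmp9 and Timp1 differed among the nanozyme lungs. The ratio of Mmp9 to Timp1 FPKM within a library was 1.33, 0.255 and 0.853 in nanozyme lungs, 0.283, 0.239 and 0.264 in model lungs and 0.390, 0.242 and 0.317 in normal lungs. Nanozyme replicates 1 and 3 were above every other library. Replicate 2 lay within the ranges of both the model and the normal libraries, which overlapped. The ratio of Mmp8 to Mmp9 was 0.606, 0.973 and 0.769 in nanozyme, 1.05, 1.22 and 1.18 in model and 0.278, 0.310 and 0.172 in normal lungs, with no overlap between groups. The ratio of Mmp14 to Mmp2, an activator and its proenzyme, was 1.37, 2.17 and 0.929 in nanozyme, 2.52, 5.44 and 2.68 in model and 0.619, 0.668 and 0.650 in normal lungs, also without overlap. These ratios were chosen after the values were seen, and no test was made of them.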
